A study of Mus musculus with 10 samples.

Results

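The aminoacyl-tRNA synthetase genes were followed in ASZ001, a resistant BCC cell line of the mouse, after inhibition of AP-1 or of the TGFß receptor kinase ALK5. The 35 genes were taken by gene symbol from both RNA-seq tables of the series, which list 17658 and 16719 genes with a usable name. Of the 35, 20 encode cytosolic synthetases (symbols without a final 2, with Farsa and Farsb, the subunits of the phenylalanine enzyme) and 15 encode mitochondrial synthetases (symbols that end in 2). All 35 were listed and passed the filter on low values in both tables. Lars2, which is a mitochondrial synthetase too, was not among the members and is described apart from them.

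Cells were kept in low-serum medium for 24 h. In the T-5224 experiment they received DMSO, the vehicle (n = 2 libraries), or 20 µM of the AP-1 inhibitor T-5224 (n = 2). In the SB431542 experiment they received DMSO (n = 3) or 10 µM of the ALK5 inhibitor SB431542 (n = 3). All libraries came from the same cell line, and each inhibitor was used at a single dose and time. Values are RPKM, in which read counts are divided by gene length and by library depth, so that levels of different genes can be set side by side. An inhibitor was never set against the DMSO libraries of the other experiment.

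Aminoacyl-tRNA synthetases join each amino acid to its matching tRNAs, and so supply the ribosome. Cytosolic and mitochondrial translation use largely separate sets of these enzymes, all encoded in the nucleus, although Gars and Kars make enzymes for both compartments. The enzymes fall into class I and class II by the fold of their catalytic domain, and several cytosolic ones sit together with scaffold proteins in the multi-synthetase complex. Many cytosolic synthetase genes are known targets of ATF4, the transcription factor of the integrated stress response, which is made when the initiation factor eIF2 is phosphorylated and which binds C/EBP-ATF response elements.

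Because AP-1 and ATF4 are both bZIP factors with known recognition sequences, the start sites of the members were searched for them. RefSeq promoter windows (GRCm38.p6, 250 bases before to 50 bases after the gene start) were given for 26 members, 13 cytosolic and 13 mitochondrial. There was no entry for Cars, Hars, Lars, Nars, Rars, Vars, Wars, Hars2 and Pars2. The core of the C/EBP-ATF element (TGATGNAA, on either strand) was present for 5 of the 13 cytosolic members (38.5%) and 0 of the 13 mitochondrial members. Counted by gene, it was present for 2.57% of the 8454 genes tested with T-5224 that have a window. Those genes were matched to windows by symbol alone, while members without a symbol match were looked up by synonym. Counted by window, it was in 3.97% of all 32851 windows. The AP-1 element (TGACTCA or TGAGTCA, which are the reverse complement of each other) was present for 1 of the 13 cytosolic members and 0 of the 13 mitochondrial ones. It was present for 4.48% of those tested genes and in 5.20% of all windows. No member's window held both.

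Of the matches, 6 are printed below with the bases around them, because they include the glycine, alanine, isoleucine, threonine and tyrosine enzymes, which rose with T-5224, and Qars, the cytosolic member that fell. Each line gives 30 bases of the gene's own strand, 5′ to 3′, with the match in capitals. Every stretch had 1 exact match in NCBIM37, the assembly behind mm9, and the positions are of that build.
Gars, chr6:54987954-54987983, plus strand: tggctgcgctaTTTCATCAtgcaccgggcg
Aars, chr8:113557740-113557769, plus strand: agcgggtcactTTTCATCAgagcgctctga
Iars, chr13:49777495-49777524, plus strand: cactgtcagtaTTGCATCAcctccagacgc
Tars, chr15:11329410-11329439, minus strand: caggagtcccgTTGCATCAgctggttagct
Yars, chr4:128867139-128867168, plus strand: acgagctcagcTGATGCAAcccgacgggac
Qars, chr9:108410243-108410272, plus strand: cgctcgctctcTGACTCAtaaatggcgttg

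The C/EBP-ATF cores printed began 9 bases after the RefSeq start of Aars, 30 bases before that of Gars, 7 bases after that of Iars, 15 bases before that of Tars and 3 bases after that of Yars. The stretches of Aars, Iars and Tars overlapped an annotated first-exon UTR, the stretch of Yars overlapped UTR and coding sequence, and that of Gars overlapped no annotated exon. In Qars the AP-1 element began 82 bases before the start, outside annotated exons. Aars held another C/EBP-ATF core, not printed, that began 112 bases before its RefSeq start. A match of letters is a description and does not show that a factor binds there.

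In untreated cells the cytosolic synthetases were, as a group, far more abundant per length than the mitochondrial ones. Gars was the highest member in every library of both tables, with a DMSO level of 112 ± 4.58 RPKM (SD, n = 2) in the T-5224 experiment and of 143 ± 4.89 RPKM (SD, n = 3) in the SB431542 experiment. Aars was next, at 105 ± 0.528 and 129 ± 5.54 RPKM. The lowest cytosolic member of the T-5224 table's DMSO libraries was Cars, at 9.13 ± 0.646 RPKM. Among mitochondrial members, Iars2 was highest, at 28.4 ± 0.158 and 27.9 ± 1.12 RPKM, and Ears2 lowest, at 1.78 ± 0.155 and 1.53 ± 0.332 RPKM. The compartments overlapped in part. In each DMSO library of the T-5224 experiment, 6 or 7 mitochondrial members lay above the lowest cytosolic member. In each library of the SB431542 experiment, 3 or 4 did so. The overlap went beyond the lowest cytosolic member. By DMSO mean, Iars2 ranked 16 of the 35 members in the T-5224 experiment, above Farsb (27.0 RPKM) and Iars (23.1 RPKM) among others. It ranked 17 in the SB431542 experiment, above Yars (25.3 RPKM) among others.

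T-5224 raised nearly all cytosolic synthetase mRNAs and split the mitochondrial ones. At an adjusted p under 0.05 (limma), 19 of 20 cytosolic members were higher with T-5224 and 1, Qars, was lower. The inhibitor changed much of the transcriptome, with 40.3% of 10809 genes tested higher and 39.4% lower, so the direction and size of the changes say more than the number of calls. Over 2-fold, 14 of 20 cytosolic members were higher and 0 lower, against 10.4% and 10.6% of all genes tested. Of the 15 mitochondrial members, 7 were higher, 3 were lower and 5 did not pass, and 0 passed the limit of 2-fold in either direction.

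The median log2 fold change was 1.54 for the cytosolic members, 0.19 for the mitochondrial members and 0.003 for all genes tested. The mitochondrial median was 0.11 without T-5224 replicate 1 and 0.27 without T-5224 replicate 2. The T-5224 libraries lay above both DMSO libraries for 19 cytosolic members and below for 1, and above for 10 and below for 4 mitochondrial members, where 45.1% of all genes lay above and 44.5% below. Summed over members, cytosolic synthetase mRNA went from between 977 and 1015 RPKM in DMSO to between 2659 and 2775 RPKM, and mitochondrial from between 147 and 150.0 RPKM to between 172 and 175 RPKM. The ratio of the sums went from 6.67 and 6.76 to 15.4 and 15.8. In these bulk samples a higher level per cell and a different mix of cell states cannot be told apart.

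**Figure D1:**
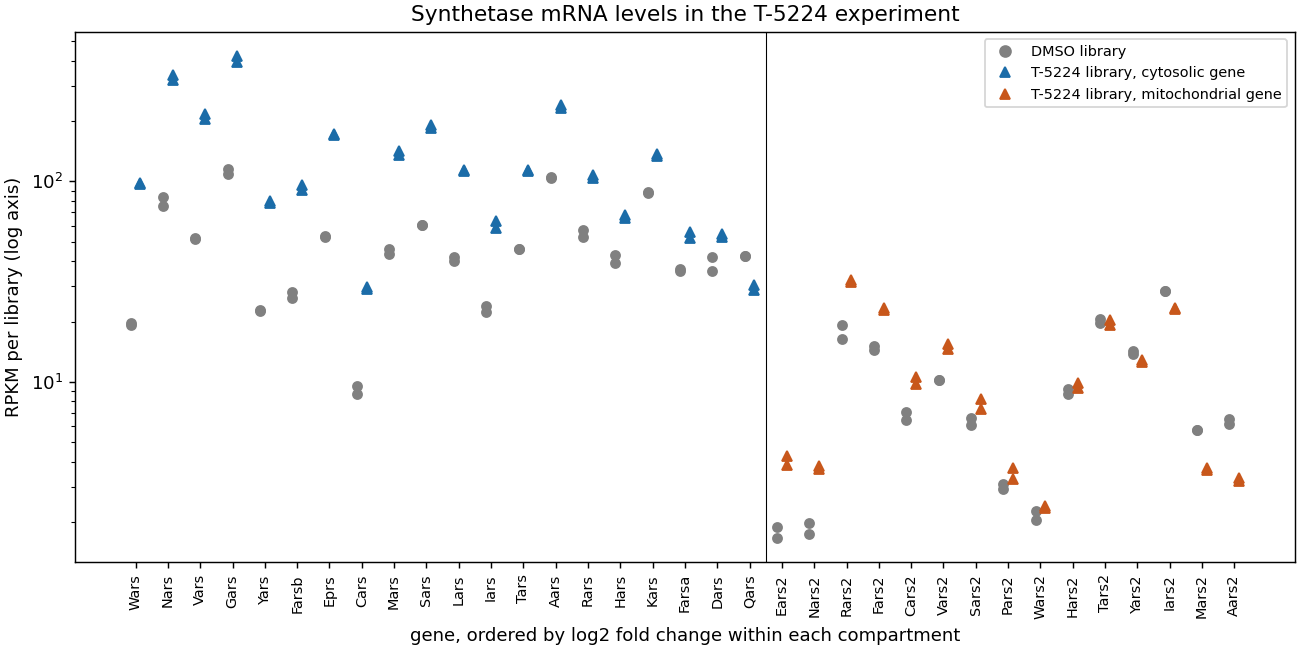
RPKM of each of the 35 members (log axis) in the 2 DMSO libraries (grey circles) and the 2 T-5224 libraries (triangles, blue for cytosolic and orange for mitochondrial genes), with genes ordered by log2 fold change within each compartment. The triangles lie above the circles for 19 of 20 cytosolic genes and below them for Qars, while the mitochondrial genes run from Ears2, which rose, to Aars2, which fell.

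The largest rise was in Wars, the tryptophan enzyme (mm9 chr12:110098240-110132384). Its level was 19.2 and 19.7 RPKM in the DMSO libraries and 98.6 and 96.5 RPKM in the T-5224 libraries, a log2 fold change of 2.30 (SE 0.054, adjusted p = 1.78e-11, limma). From among the lowest cytosolic members it moved to a level near that of Farsb. Nars, the asparagine enzyme, went from 83.3 and 75.8 RPKM to 338 and 320.4 RPKM, a log2 fold change of 2.04. Vars, the valine enzyme (chr17:35137932-35153267), went from 52.1 and 51.8 RPKM to 218 and 205 RPKM, a log2 fold change of 2.02. In these 3 genes the gap between the groups was many times the gap between libraries of a group.

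Gars, the glycine enzyme of both compartments (chr6:54987995-55029498), stayed the most abundant member. It rose from 115 and 108 RPKM to 421 and 395 RPKM, with a log2 fold change of 1.86 (SE 0.055, adjusted p = 9.39e-11, limma). Kars, the lysine enzyme that also serves both compartments, rose much less, from 88.8 and 87.2 RPKM to 137 and 135 RPKM, with a log2 fold change of 0.62. The genes whose product is shared between compartments therefore stood at different ends of the cytosolic range.

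Yars (tyrosine) went from 22.4 and 22.9 RPKM to 80.1 and 78.4 RPKM, a log2 fold change of 1.78. Eprs, whose protein charges both glutamate and proline tRNAs, went from 53.5 and 52.6 RPKM to 173 and 169.6 RPKM, a log2 fold change of 1.68. Cars (cysteine) went from 9.59 and 8.67 RPKM to 29.7 and 29.2 RPKM, a log2 fold change of 1.64. These genes differed in level and rose by similar factors. Mars (methionine) had a log2 fold change of 1.63, Sars (serine) of 1.62, Lars (leucine) of 1.46, Iars (isoleucine) of 1.38, Tars (threonine) of 1.29 and Aars (alanine) of 1.18. For all of these the adjusted p was at most 3.25e-09 (limma).

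Rars (arginine), Hars (histidine), Kars, Farsa and Dars (aspartate) also rose but stayed under 2-fold, with log2 fold changes of 0.94, 0.70, 0.62, 0.58 and 0.47. The smallest of these rises, in Dars, was from 41.9 and 35.5 RPKM to 54.6 and 52.7 RPKM (adjusted p = 0.000105, limma), which still left the groups apart.

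Qars, the glutamine enzyme (chr9:108410336-108418272), went the other way. Its level was 42.6 and 42.5 RPKM in DMSO and 30.3 and 28.8 RPKM with T-5224, a log2 fold change of −0.52 (SE 0.057, adjusted p = 5.59e-06, limma). Its rank among the cytosolic members fell to that of the lowest in one of the T-5224 libraries, a place held by Cars in the other 3 libraries of the table. Qars was below DMSO under every setting tried.

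The subunits of the phenylalanine enzyme did not rise in step. Farsa, the alpha subunit, went from 35.9 and 36.5 RPKM to 56.1 and 52.4 RPKM, while Farsb, the beta subunit (chr1:78414533-78485434), went from 28.0 and 26.1 RPKM to 95.7 and 90.6 RPKM. The ratio of Farsb to Farsa mRNA was 0.780 and 0.715 in DMSO and 1.70 and 1.73 with T-5224. In the SB431542 experiment the same ratio was 0.927, 1.04 and 1.10 in DMSO and 1.17, 1.23 and 1.28 with SB431542, so it lay higher in the treated libraries there as well. The exons of Farsb share 265 bases (10.8%) with Sgpp2 on the opposite strand, and Sgpp2 was not among the genes tested.

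The rises of the cytosolic members were also set out by complex and by class. For the 8 complex members (Dars, Eprs, Iars, Kars, Lars, Mars, Qars, Rars) the median log2 fold change was 1.16, with 7 higher and 1 lower and 4 over 2-fold. The 12 members outside the complex had a median of 1.70, with 12 higher and 10 over 2-fold. Class I members had a median of 1.63, with 9 of 10 higher, 1 lower and 8 over 2-fold, and class II members 1.23, with 10 of 10 higher and 6 over 2-fold. Among all genes tested 40.3% were higher and 39.4% lower, and over 2-fold 10.4% were higher and 10.6% lower. The ranges of the sub-groups overlap, from −0.52 to 1.68 in the complex and from 0.58 to 2.30 outside it. The differences between sub-groups were not tested.

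Of the scaffold proteins of the complex, Eef1e1 rose by a log2 fold change of 1.59, Aimp2 by 0.76 and Aimp1 by 0.50. Aarsd1, which encodes a protein that removes serine wrongly joined to alanine tRNA, rose by 1.17, and Tarsl2, a relative of Tars, did not pass (−0.07, adjusted p = 0.561, limma). Together, 4 of these 5 genes were higher and 0 lower with T-5224, where 40.3% of all genes tested were higher and 39.4% lower. With SB431542 none of the 5 passed.

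The cytosolic members with a C/EBP-ATF core in the window (Aars, Gars, Iars, Tars and Yars, printed above) had a median log2 fold change of 1.38 and a range of 1.18 to 1.86. The 8 cytosolic members whose window lacked it had a median of 1.12 and a range of −0.52 to 1.77, so the ranges overlapped. Sars, Eprs, Mars and Farsb rose over 2-fold without a match in their windows. Qars was alone in holding the AP-1 element.

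The mitochondrial members had no common direction. Ears2 (glutamate; chr7:129180727-129210777) rose most, from 1.89 and 1.67 RPKM to 4.25 and 3.86 RPKM. Its log2 fold change of 0.998 (SE 0.11, adjusted p = 4.86e-06, limma) lay just inside the 2-fold limit on the log2(RPKM + 0.5) scale, which understates the change of low genes, and the ratio of its means was 2.28. Nars2 (asparagine), at 1.98 and 1.74 RPKM in DMSO and 3.79 and 3.70 RPKM with T-5224, had a log2 fold change of 0.85 and a ratio of means of 2.01. Both started from the lowest levels of all members.

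Rars2 (arginine) rose from 19.3 and 16.3 RPKM to 31.4 and 32.3 RPKM, a log2 fold change of 0.83, and became the most abundant mitochondrial member in both T-5224 libraries. Fars2 (phenylalanine), Cars2 (cysteine) and Vars2 (valine) rose by 0.63, 0.56 and 0.53, and Sars2 (serine) by 0.27 (adjusted p = 0.0129, limma). The call of Sars2 was lost without T-5224 replicate 1 (log2 fold change 0.19, adjusted p = 0.147, limma), and its T-5224 libraries were at 8.23 and 7.31 RPKM against 6.56 and 6.12 RPKM in DMSO.

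Aars2, the mitochondrial alanine enzyme (chr17:45643790-45657791), fell most. It was at 6.17 and 6.52 RPKM in DMSO and at 3.19 and 3.31 RPKM with T-5224, a log2 fold change of −0.87 (SE 0.089, adjusted p = 3.05e-06, limma). Mars2 (methionine) went from 5.73 RPKM in both DMSO libraries to 3.72 and 3.64 RPKM, a log2 fold change of −0.58. Iars2 (isoleucine) went from 28.3 and 28.5 RPKM to 23.3 and 23.2 RPKM, a log2 fold change of −0.28 (adjusted p = 0.000823, limma).

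For Pars2 (proline), Wars2 (tryptophan), Hars2 (histidine), Tars2 (threonine) and Yars2 (tyrosine) the log2 fold changes were 0.19, 0.12, 0.10, −0.03 and −0.13. None of these 5 passed, with adjusted p between 0.0845 for Yars2 and 0.629 for Tars2 (limma). The T-5224 and DMSO libraries overlapped only in Tars2, at 19.7 and 20.7 RPKM in DMSO and 20.3 and 19.2 RPKM with T-5224.

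**Figure D2:**
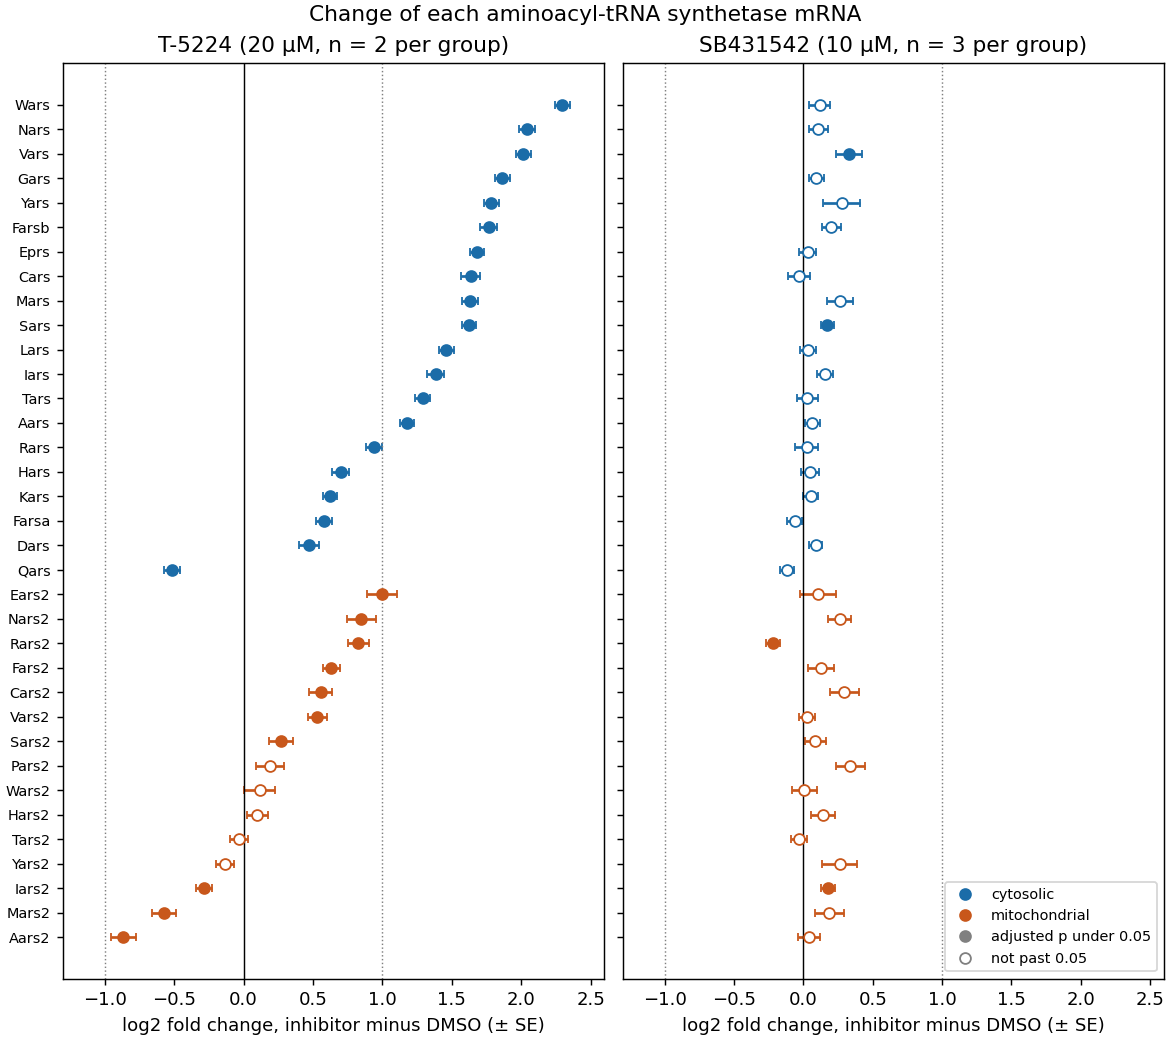
Log2 fold change of each member, inhibitor minus DMSO (x axis, bars ± SE), with T-5224 (left) and SB431542 (right), and cytosolic genes in blue above mitochondrial genes in orange. Filled points passed an adjusted p of 0.05, dotted lines mark 2-fold, and 14 cytosolic genes lie beyond the upper line with T-5224 and 0 members beyond either line with SB431542.

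Setting each cytosolic gene against the mitochondrial gene for the same amino acid gave 16 pairs over 15 amino acids, in which Eprs stands for both glutamate and proline and Fars2 is set against each subunit. With T-5224 the ratio of cytosolic to mitochondrial RPKM was above both DMSO values in 14 of 16 pairs. It rose most for methionine, with Mars over Mars2 going from 7.98 and 7.55 to 38.3 and 37.2, a factor of 4.86 between the means. There, the cytosolic gene rose as the mitochondrial one fell.

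Alanine showed the same opposition, with Aars over Aars2 at 16.9 and 16.1 in DMSO and 75.8 and 70.4 with T-5224. Tryptophan reached a similar factor, 4.54, with Wars2 close to its DMSO level. Iars over Iars2 went from 0.843 and 0.782 to 2.72 and 2.53, so that isoleucine was the pair in which the mitochondrial gene was the higher in DMSO and the cytosolic gene with T-5224.

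At the other end stood arginine and phenylalanine. Rars over Rars2 was 2.96 and 3.23 in DMSO and 3.43 and 3.21 with T-5224, and Farsa over Fars2 was 2.38 and 2.53 in DMSO and 2.40 and 2.29 with T-5224. In both pairs the groups overlapped, since the cytosolic and the mitochondrial gene rose by like amounts. The ratios of glutamate (Eprs over Ears2) and histidine (Hars over Hars2) rose by factors of 1.42 and 1.51 between means, the smallest among the other 14 pairs.

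**Figure D3:**
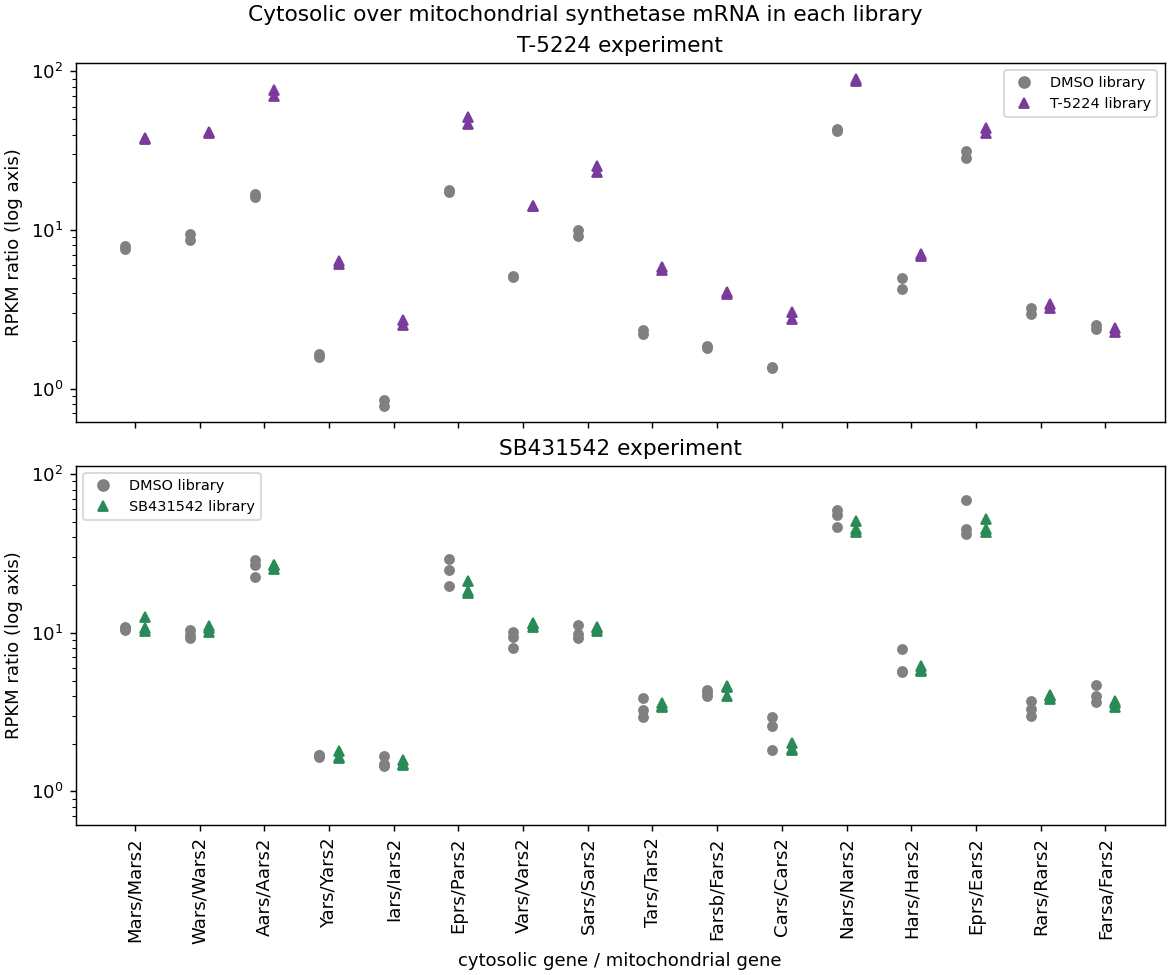
Ratio of cytosolic to mitochondrial RPKM (log axis) in each library for the 16 pairs, with DMSO libraries as grey circles and inhibitor libraries as triangles, for the T-5224 experiment (top) and the SB431542 experiment (bottom). With T-5224 the triangles lie above the circles in 14 pairs, and the arginine pair and the Farsa/Fars2 pair overlap, whereas with SB431542 the groups overlap in 14 of 16 pairs.

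Other genes of mitochondrial charging gave the same mixed picture with T-5224 as the members. Of the subunits of the amidotransferase that makes mitochondrial glutaminyl-tRNA, Qrsl1 rose by a log2 fold change of 0.69 and Gatc by 0.90, while Gatb fell by 0.33 on the log2 scale. Mtfmt, which formylates the initiator tRNA, was at 0.05 and did not pass (adjusted p = 0.601, limma).

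The genes of the integrated stress response, of which cytosolic synthetases are known targets, mostly moved in the same direction as the cytosolic members with T-5224. Of 12 regulators, 9 were higher and 2 lower, where 40.3% of all genes tested were higher and 39.4% lower. Atf4 mRNA was at 45.2 and 47.1 RPKM in DMSO and 545 and 521 RPKM with T-5224, a log2 fold change of 3.52 (SE 0.052, adjusted p = 6.70e-13, limma). Ddit3 (CHOP), Trib3 and Ppp1r15a, which act downstream of ATF4, had log2 fold changes of 4.85, 6.15 and 4.56. Of the eIF2 kinases, Eif2ak4 rose by 0.42, Eif2ak1 and Eif2ak2 fell by 0.38 and 1.68 on the log2 scale, and Eif2ak3 did not pass.

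Of 24 other ATF4 targets, 22 were higher, 21 of them over 2-fold, and 2 (Slc38a2 and Vldlr) were lower, with a median log2 fold change of 2.21. Of all genes tested, 40.3% were higher and 39.4% lower, and over 2-fold 10.4% were higher and 10.6% lower. They include Asns, the asparagine synthetase, at 112 and 102 RPKM in DMSO and 632 and 591 RPKM with T-5224, and the amino acid transporter subunits Slc7a5 (log2 fold change 3.98) and Slc3a2 (2.47). The median of these targets exceeded that of the cytosolic synthetases, and the 2 lists overlapped in range. Whether ATF4 had a part in the changes of the members was not tested.

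**Figure D4:**
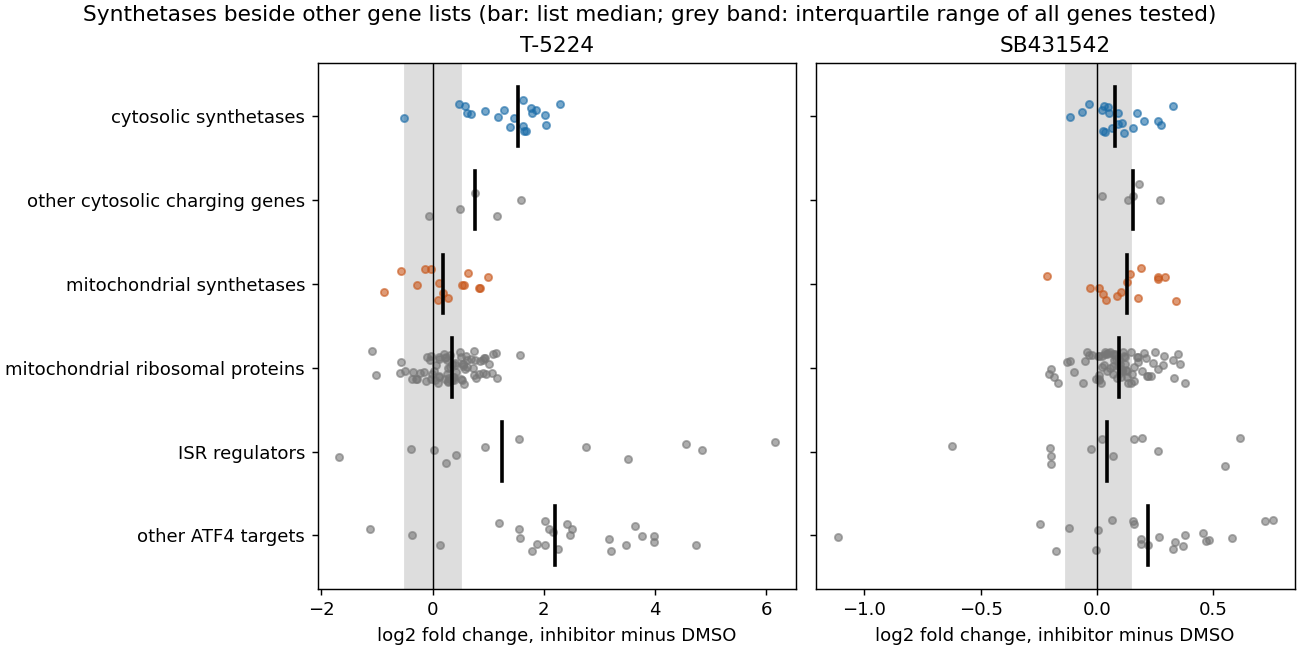
Log2 fold change, inhibitor minus DMSO (x axis), of every tested gene of 6 lists with T-5224 (left) and SB431542 (right); each point is a gene, the black bar the median of the list and the grey band the interquartile range of all genes tested. With T-5224 the medians of the cytosolic synthetases (1.54) and the other ATF4 targets (2.21) lie to the right of the band and that of the mitochondrial synthetases (0.19) inside it, and the x axes of the panels differ.

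SB431542 left the synthetases close to their DMSO levels. Of the cytosolic members, 2 (Sars and Vars) were higher and 0 lower at an adjusted p under 0.05 (limma), where 10.2% of 10842 genes tested were higher and 10.0% lower. Of the mitochondrial members, 1 (Iars2) was higher and 1 (Rars2) lower. At an unadjusted p under 0.05, 5 cytosolic members were higher and 0 lower, and 4 mitochondrial members were higher and 1 lower, where 19.1% of all genes were higher and 17.0% lower. None of the 35 passed the limit of 2-fold, which 0.231% of all genes passed upward and 0.581% downward. The median log2 fold change was 0.08 for cytosolic and 0.13 for mitochondrial members, beside 0.008 for all genes. The medians moved with single libraries: the cytosolic median was 0.037 without DMSO replicate 3 and the mitochondrial median 0.034 without DMSO replicate 1, 0.078 without SB431542 replicate 1 and 0.19 without DMSO replicate 2. The difference of the medians, cytosolic minus mitochondrial, ran from −0.14 to 0.061 on leaving out a library and turned positive without DMSO replicate 1 and without SB431542 replicate 1 (0.011). Libraries of the groups did not overlap for 6 cytosolic members above and 1 below, and for 6 mitochondrial members above and 1 below, where 23.9% of all genes lay above and 21.3% below.

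Vars had the largest rise of the cytosolic members. It was at 78.6, 99.3 and 99.7 RPKM in DMSO and at 116, 118 and 113 RPKM with SB431542, a log2 fold change of 0.33 (SE 0.094, adjusted p = 0.0471, limma). Sars was at 56.0, 56.1 and 53.9 RPKM in DMSO and at 62.3, 63.8 and 61.2 RPKM with SB431542, a log2 fold change of 0.17 (SE 0.047, adjusted p = 0.0411, limma). Both sets of libraries stood apart, with DMSO replicate 1 lowest for Vars by a wide margin.

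Iars2 was at 26.7, 28.8 and 28.3 RPKM in DMSO and at 31.7, 31.6 and 31.6 RPKM with SB431542, a log2 fold change of 0.18 (SE 0.051, adjusted p = 0.0476, limma). Rars2 was at 20.9, 20.2 and 20.9 RPKM in DMSO and at 18.3, 17.3 and 17.6 RPKM with SB431542, a log2 fold change of −0.22 (SE 0.051, adjusted p = 0.0266, limma). The treated libraries lay on one side of all DMSO libraries in both genes.

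None of these 4 calls was firm. The call of Sars was lost on leaving out any library other than DMSO replicate 1 (adjusted p up to 0.166, limma), as were those of Iars2 (up to 0.152) and Rars2 (up to 0.118), and that of Vars was lost without DMSO replicate 2 (0.0595) or any SB431542 library (up to 0.151). Without DMSO replicate 1, 5 cytosolic members (Vars, Sars, Iars, Mars and Farsb) were higher and 1 (Qars) lower, and Iars2 and Rars2 kept their calls, where 19.9% of all genes were higher and 17.5% lower under that setting. On leaving out a library, the log2 fold changes kept their direction and ran from 0.15 to 0.19 for Sars, from 0.22 to 0.39 for Vars, from 0.15 to 0.20 for Iars2 and from −0.24 to −0.20 for Rars2. The lowest value of Vars was the one without DMSO replicate 1.

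The largest difference among members without a call was in Pars2, at 2.78, 3.10 and 3.60 RPKM in DMSO and 4.25, 4.37 and 3.73 RPKM with SB431542 (log2 fold change 0.34, SE 0.10, adjusted p = 0.0564, limma). Qars, the lowest of the cytosolic members by log2 fold change in both experiments, was at 26.9, 28.1 and 28.7 RPKM in DMSO and at 26.0, 25.9 and 25.3 RPKM with SB431542 (−0.12, adjusted p = 0.142, limma). Cars (−0.03) and Farsa (−0.06) were the other cytosolic members with a value below 0. Wars, which rose most with T-5224, was at 17.5, 20.8 and 20.5 RPKM in DMSO and at 20.3, 21.6 and 21.9 RPKM with SB431542, and the groups overlapped.

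**Figure D5:**
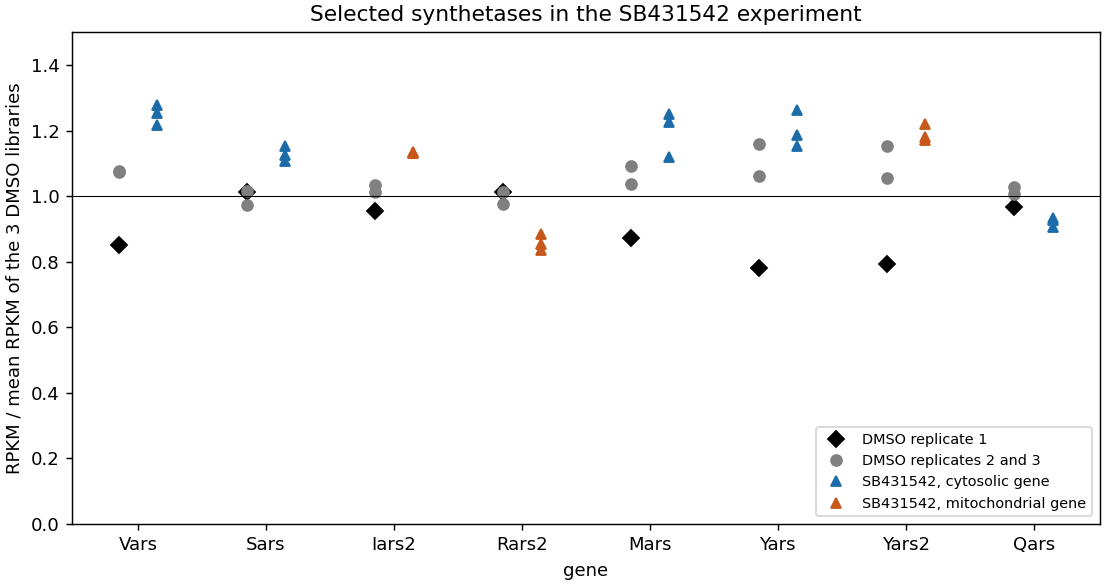
RPKM of 8 members in the 6 libraries of the SB431542 experiment, each divided by the gene's mean over the 3 DMSO libraries (y axis, from 0), with DMSO replicate 1 as black diamonds, the other DMSO libraries as grey circles and SB431542 libraries as triangles. Vars, Sars, Iars2 and Rars2 passed the test and the other 4 did not, and DMSO replicate 1 lies lowest by a wide margin in Vars, Mars, Yars and Yars2.

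The balance of the compartments was steady with SB431542. The summed RPKM was between 1206 and 1279 for cytosolic members in DMSO and between 1318 and 1368 with SB431542, and between 129.7 and 147 for mitochondrial members in DMSO and between 149 and 152 with SB431542. The ratio of the sums was 9.64, 8.72 and 8.25 in DMSO and 8.68, 9.16 and 8.80 with SB431542, so the groups overlapped. Of the 16 pairs, 14 overlapped and 2 lay higher with SB431542, arginine (Rars over Rars2, 3.34 ± 0.368 to 3.95 ± 0.136, SD, n = 3 each) and valine (Vars over Vars2, 9.17 ± 1.05 to 11.3 ± 0.404).

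Of the stress response regulators, Atf4 (log2 fold change 0.55), Cebpg (0.26) and Trib3 (0.61) were higher with SB431542 and Eif2ak1 was lower, of 12. Of 23 other ATF4 targets tested, 9 were higher and 1 (Nupr1) lower, with a median log2 fold change of 0.22. Of all genes tested with SB431542, 10.2% were higher and 10.0% lower. The experiments had no libraries in common and were made into separate tables, and the difference between inhibitors was not tested for any member.

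Several facts of the libraries bear on these values. Depth, worked out from the steps between low values, was between 31.75 and 51.2 M reads, and the lowest member of each table rested on about 208 (Ears2) and 238 (Nars2) reads in its lowest library, a counting error of 6.94% and 6.49%. DMSO replicate 1 of the SB431542 experiment stood apart, with an SD of 0.27 (log2, over genes) from the other DMSO libraries against 0.16 and 0.19 for those libraries, and it was the lowest of its group for 21 of 35 members. In the T-5224 table, replicate 2 was the lower of the T-5224 pair for 31 of 35 members, and the DMSO library in the column numbered 2 the lower of its pair for 25 of 35. With T-5224 all 5 keratinocyte markers fell, Krt5 from 6002 to 589 RPKM and Krt14 from 5708 to 809 RPKM between means, and with SB431542 Krt5 and Krt14 fell. Fibroblast markers summed to between 2.43 and 4.13 RPKM, mostly Dcn, which was higher with T-5224 (log2 fold change 0.35) and with SB431542 (0.68). The leukocyte markers Ptprc, Lyz2 and Cd3e were at or near 0 throughout, while Cd68 went from 16.7 and 18.6 to 32.7 and 33.2 RPKM with T-5224, and of the endothelial markers Pecam1 alone was above the filter and fell with both inhibitors. The part of these marker changes in the values of the members was not tested.

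Reads of genes that overlap on opposite strands could not be told apart where counting did not use strand, which is not given in the sources used here. Exons of Mars share 68 bases (1.99% of its exon bases) with Ddit3, which rose from 19.4 to 574 RPKM between means with T-5224. Exons of Iars2 share 2018 bases (22.7%) with Rab3gap2, and Hars and Hars2 share 195 bases with each other. Vars, Cars, Nars2, Ears2, Aars and Yars share between 30 and 304 exon bases with a gene on the other strand.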

How the data were processed

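RNA-seq libraries of ASZ001 cells (TruSeq Stranded mRNA kit) were aligned by the authors with TopHat to mm9, and the authors deposited RPKM per gene and library, made with HOMER, in a table for each experiment. All value columns were used (0 left out). The DMSO columns of the T-5224 table are numbered 1 and 2, while the labels number these libraries 4 and 5, so they were used as a group. Rows in which a date had replaced the gene symbol were dropped (22 and 23).

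Testing covered the genes whose RPKM averaged 1 or more within a table (10842 and 10809). The test was the moderated, two-sided test of limma (3.58.1, R 4.3.3) with its trend option, applied to log2(RPKM + 0.5) and adjusted by Benjamini-Hochberg over all genes tested. Log2 fold changes are inhibitor minus DMSO on that scale. A member was called at an adjusted p under 0.05. A second count also required a log2 fold change beyond 1, the limit the study uses. Pair ratios and summed RPKM were computed per library and not tested. The groups held 2 or 3 biological replicates per the series description, with no record of how cultures were kept apart, so p-values measure the spread between these libraries only.

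The members, the gene lists and the pairs were chosen with earlier results of these data known. All members are named or counted, with library values for the largest changes, those that go against their group, and the pairs. Gene positions come from GENCODE for NCBIM37, and promoter windows from RefSeq (GRCm38.p6). Depth came from RPKM of genes shorter than 250 bases, of which at least 99.04% of values lay within 0.05 of a whole read. Some items withheld for evaluation are not reported here. The fit was tested on simulated data. Alternatives were pseudocounts of 0.1 and 1, no filter or a mean of at least 5 RPKM, median centring, quantile normalization, no trend, unadjusted p, the replicate block for SB431542 and leaving out each library.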

Additional observations from a re-analysis of the deposited data

Results flagged for a closer look

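In 3 mitochondrial members, all T-5224 libraries lay on one side of their DMSO libraries and all SB431542 libraries on the opposite side of theirs. Separate groups were common: 45.1% of all genes tested lay above and 44.5% below with T-5224, and 23.9% and 21.3% with SB431542. The share of all genes with opposite sides was not counted, so the 3 members are listed without a claim that they are unusual. Rars2 had a log2 fold change of 0.83 with T-5224 and −0.22 with SB431542, and Iars2 −0.28 with T-5224 and 0.18 with SB431542. Yars2 was at −0.13 with T-5224 and 0.26 with SB431542, and passed the test with neither. Its SB431542 value was 0.11 without DMSO replicate 1 and 0.37 without DMSO replicate 2. The difference between the inhibitors was not tested, since the tables were made separately, and the SB431542 calls of Rars2 and Iars2 were lost on leaving out any library but DMSO replicate 1, with log2 fold changes of −0.24 to −0.20 and 0.15 to 0.20. Every group held fewer than 4 libraries, so no gap test for a deviating library was run.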

How the results depend on the processing

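With T-5224, the counts of cytosolic members higher (19), lower (1) and over 2-fold (14) were equal under every alternative. Mitochondrial members higher over 2-fold went from 0 to 1, Ears2, with a pseudocount of 0.1 and with quantile normalization, and between 0 and 1 on leaving out a library. Mitochondrial members lower went from 3 to 1 at a mean of at least 5 RPKM, which tests fewer genes. The cytosolic median log2 fold change was 1.45, the mitochondrial median 0.28 and their difference 1.18 with quantile normalization, and the difference was 1.27 at a mean of at least 5 RPKM, from 1.54, 0.19 and 1.35. Leaving out a library gave 1.499 to 1.559 for the cytosolic median, 0.11 to 0.27 for the mitochondrial median and 1.29 to 1.41 for the difference. Tars2, which did not pass, ranged from −0.075 to 0.0051 on leaving out a library, with a change of sign without T-5224 replicate 2, and was −0.10 with quantile normalization. Pars2 and Yars2 passed with quantile normalization (adjusted p = 0.0207 and 0.0385, limma). A replicate left alone in its group was assumed to vary like the other group.

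With SB431542, cytosolic members higher went from 2 to 1 without a filter, to 0 with quantile normalization or no trend, to 5 at an unadjusted p and to between 0 and 5 on leaving out a library. Mitochondrial members higher went from 1 to 3 with median centring, 2 with quantile normalization, 4 at an unadjusted p and between 0 and 2 on leaving out a library. Mitochondrial members lower ranged between 0 and 1, and cytosolic members lower between 0 and 1, on leaving out a library. The cytosolic median ranged from 0.037 to 0.095, the mitochondrial median from 0.034 to 0.19 and their difference from −0.14 to 0.061. With the replicate block, 0 cytosolic members were higher, 0 mitochondrial members higher and 0 lower. The same-numbered libraries correlated at −0.15, 0.15 and −0.09 in their deviations from the group means, and differently numbered ones between −0.17 and 0.20. With so few libraries these correlations cannot show whether cultures of the same number were paired.

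Among single members with SB431542, the sign changed with quantile normalization for Eprs (−0.023), Rars (−0.025) and Tars (−0.0013). On leaving out a library, it changed for Cars (−0.11 to 0.011), Eprs (−0.020 to 0.078), Rars (−0.044 to 0.11), Tars (−0.043 to 0.099), Aars2 (−0.0086 to 0.097), Ears2 (−0.025 to 0.21), Tars2 (−0.062 to 0.0057) and Wars2 (−0.048 to 0.072). None of these members passed the test under those settings. The cause of these shifts was not tested. Depth limits the low mitochondrial members most, and with 2 libraries per T-5224 group the spread rests on information borrowed across genes.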

Other observations

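Ribosomal protein genes, the other large protein group of each translation system, can be set beside the synthetases. With T-5224, 51 of 77 mitochondrial ribosomal protein genes tested were higher and 11 lower, with a median log2 fold change of 0.35, and 58 of 76 cytosolic ones were higher and 5 lower, with a median of 0.60. With SB431542, 9 of 78 mitochondrial ones were higher and 0 lower, and 8 of 78 cytosolic ones were higher and 1 lower, shares close to or under those of all genes tested (10.2% higher and 10.0% lower). Their median log2 fold changes were 0.096 and 0.15, beside 0.008 for all genes. The SB431542 libraries lay above all DMSO libraries for 28 mitochondrial and 47 cytosolic ones, and below for 1 of each. Of all genes, 23.9% lay above and 21.3% below. With T-5224, 40.3% of all genes were higher and 39.4% lower.

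Lars2, the mitochondrial leucine enzyme, differed between libraries of the same group more than any member did. Its level was 216 and 243 RPKM in the DMSO libraries and 147 and 406 RPKM after T-5224. In the SB431542 experiment it was 101, 367 and 407 RPKM in DMSO and between 373 and 382 RPKM after treatment. Rn45s, the precursor of ribosomal RNA, measured, in the same order, 3401 and 3473 RPKM with DMSO and 1862 and 5184 RPKM after T-5224. In the SB431542 experiment Rn45s measured 770.3, 2101 and 2155 RPKM with DMSO and between 1868 and 2229 RPKM after treatment. Within each experiment the lowest Lars2 value came with the lowest Rn45s value. Across experiments the levels did not match, since Lars2 values of 406 and 407 RPKM came with Rn45s values of 5184 and 2155 RPKM. Whether reads of ribosomal RNA were counted under Lars2 was not tested.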
